A study of Mus musculus with 10 samples.

Results

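The 82 genes described here are named as genes for proteins of the cytosolic ribosome. Rpl7l1 is among them, although its product is mostly known from ribosome assembly. The 82 are the names among 31053 listed genes that start with Rpl or Rps and a digit, plus Rpsa, Rplp0, Rplp1 and Rplp2. Of 105 names that began in this way, 23 were dropped as pseudogene names, kinases and the like. This left 51 Rpl names, taken as the large subunit, and 31 Rps names, taken as the small subunit. All 82 had at least 10 reads over the 10 libraries. The samples were E14 mouse ES (embryonic stem) cells, all of which carried a stably integrated Esrrb construct that doxycycline (DOX) switches on. Esrrb, an orphan nuclear receptor, belongs to the factors that keep ES cells naive. The 3 groups were cells kept in 2iL without DOX (4 libraries), cells collected 96 h after 2iL was taken away without DOX (3 libraries), and cells treated likewise but with DOX (3 libraries). 2iL joins a GSK3 inhibitor and a MEK inhibitor with the cytokine LIF in N2B27 medium. Libraries are named by experiment and library number as in their titles, so that 2iL exp1_2 is library 2 of experiment 1. Nothing says that libraries came from separate cultures or clones, so each p-value reflects only how far these libraries differ among themselves, which may be technical.

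Ribosomal proteins are made in step with ribosomal RNA and are assembled with it in the nucleolus. Their mRNAs are short and abundant, and many begin with a C followed by a run of pyrimidines at the cap, the terminal oligopyrimidine (TOP) tract, through which mTOR and Larp1 control their translation. Mammalian genomes hold very many processed pseudogenes of these genes, and a few ribosomal proteins have a second, functional paralog. Rpl39l is the autosomal paralog of the X-linked Rpl39 and is best known from the testis. Rpl22l1, Rpl7l1, Rpl36al and Rpl3l are named for their likeness to Rpl22, Rpl7, Rpl36a and Rpl3.

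The start sites of a few of these genes are shown because the tract at the start is what most of the family is known for, and because the 2 paralogs whose reads changed after 2iL was removed can be set beside it. Each line gives 15 bases before and 15 bases from the start annotated by RefSeq (GRCm38.p6), 5′ to 3′ on the gene's strand, with a C followed by at least 4 pyrimidines that begins within 5 bases of the start in capitals.
Rps10 (chr17:27635230-27635259, minus strand): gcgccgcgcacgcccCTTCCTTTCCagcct
Rpl15 (chr14:18270972-18271001, minus strand): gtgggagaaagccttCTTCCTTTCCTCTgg
Rpl14 (chr9:120571502-120571531, plus strand): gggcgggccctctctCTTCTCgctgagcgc
Rplp2 (chr7:141447636-141447665, plus strand): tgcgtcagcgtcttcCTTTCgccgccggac
Rps26 (chr10:128626492-128626521, minus strand): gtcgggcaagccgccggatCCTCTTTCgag
Rpl39 (chrX:37085208-37085237, minus strand): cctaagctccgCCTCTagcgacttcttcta
Rpl37 (chr15:5116598-5116627, plus strand): agtttcctgggcggaagcttatccacagga
Rpl7l1 (chr17:46782642-46782671, minus strand): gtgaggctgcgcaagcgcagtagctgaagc
Rpl39l (chr16:10170213-10170242, plus strand): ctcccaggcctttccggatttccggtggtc
Rps10, Rpl15, Rpl14 and Rplp2 had the tract exactly at the annotated start, Rps26 and Rpl39 had it within 5 bases, and Rpl37, Rpl7l1 and Rpl39l had none by this rule. In Rpl39l a ctttcc run stands directly before the annotated start, and it begins just outside the 5-base limit.

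RefSeq windows from 250 bases before to 50 bases after the start were at hand for 62 of the 82 genes, 9 of them with more than 1 window. The tract lay exactly at the start in 13 of 73 windows (17.8%), against 2.51% of all 32851 windows in the table and 0 of 75 windows of mitochondrial ribosomal protein genes. Within 5 bases of the start it was found in 41.1% of the windows, against 18.3% of all windows. The letters CCGGAA, the core of sites bound by ETS family factors, stood in 35 of 73 windows (47.9%), against 14.9% of all windows. AAGGTCA, the letters of the site that Esrrb binds, stood in 6 of 73 windows (8.22%, from 4 genes), against 4.72% of all windows. The longer TCAAGGTCA, which contains it, was in 0 of 73 windows and in 0.423% of all windows. Both strands were searched, and a match describes letters in the window and not binding. Rpl39l, the member with the largest changes below, had CCGGAA but neither form of the Esrrb letters in its window. On the other strand CCGGAA reads TTCCGG, which in the start line of Rpl39l above lies across the start and again just after it. Those matches are not marked below. The 250 bases before its start follow, with CCGGAA in capitals.
Rpl39l (chr16:10169978-10170227, plus strand): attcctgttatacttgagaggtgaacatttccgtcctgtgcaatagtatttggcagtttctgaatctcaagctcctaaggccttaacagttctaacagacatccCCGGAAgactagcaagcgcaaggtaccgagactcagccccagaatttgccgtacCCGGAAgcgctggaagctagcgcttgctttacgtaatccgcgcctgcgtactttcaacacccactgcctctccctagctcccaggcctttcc

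Libraries held 1253620 to 4715450 reads in genes. 96 h DOX exp1_2 stood apart from the other 9. The date in the name of its count file is later than the date that the other 9 share, and what these dates mark is not given. It was the shallowest, it had 3.10% of its reads in mitochondrially encoded protein genes (0.559% to 1.27% in the others) and 14.8% in Gm42418, a gene that overlaps a ribosomal RNA repeat (3.39% to 6.61% in the others). The 8 fibroblast markers summed to 2102 CPM (reads scaled to the library total) in it, with none at 0, against 1.82 to 23.9 CPM in the others, where Postn was at 0 in every library. Of this sum Col1a2 gave 1288 CPM and Col1a1 595 CPM. Lum, at 0.80 CPM, lay within the 0 to 1.44 CPM of the others, and Thy1, at 16.8 CPM, little above their 0.605 to 14.0 CPM. Its 8 macrophage markers summed to 72.6 CPM with C1qa and C1qb at 0, against 8.33 to 30.8 CPM in the others with Aif1, C1qb, Fcer1g and Tyrobp at 0 throughout. Cd68 went the other way, at 5.58 CPM in it and 8.33 to 29.9 CPM in the others. Its 6 liver markers summed to 28.7 CPM, of which Alb gave 23.9 CPM, with Apoa1, Fabp1 and Serpina1a at 0, against 0 to 1.19 CPM elsewhere with Alb, Fabp1, Serpina1a and Ttr at 0 throughout. The ES cell markers, 10 genes such as Pou5f1 and Sox2, summed to 3664 CPM in 96 h DOX exp1_2, against 2238 to 3577 CPM in the others. Changes of members with DOX are therefore also given without 96 h DOX exp1_2. Esrrb itself lay between 218 and 344 CPM in 2iL, between 13.4 and 31.3 CPM without DOX, and at 13.0 to 29.2 CPM with DOX. Reads came from 3′ ends, and whether the construct holds the 3′ end of the gene is not given, so these reads do not check the DOX labels.

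As a group, the ribosomal protein genes took 16.6%, 16.1%, 17.7% and 17.0% of the reads in genes in the 2iL libraries (exp1_1, exp1_2, exp2_1, exp2_2). At 96 h without DOX the share was 16.0%, 15% and 16.2% (exp1_1, exp1_2, exp2_2). With DOX it was 14.0% in exp1_1, 14.9% in exp2_1 and 7.46% in exp1_2. The shares without DOX overlapped those in 2iL, whereas the 3 with DOX all lay below them. The mean was 16.9% ± 0.698 in 2iL (SD, n = 4), 15.7% ± 0.656 without DOX (n = 3) and 12.1% ± 4.07 with DOX (n = 3). Without 96 h DOX exp1_2 the DOX mean was 14.5% ± 0.614 (n = 2). The ratio of DOX to no DOX was 0.772 with that library and 0.921 without it, and the ratio of DOX to 2iL was 0.719 with it and 0.858 without it. Fewer transcripts of these genes per cell and more transcripts of other genes cannot be told apart in a share of reads, nor can fewer cells of a type and less RNA per cell.

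**Figure D1:**
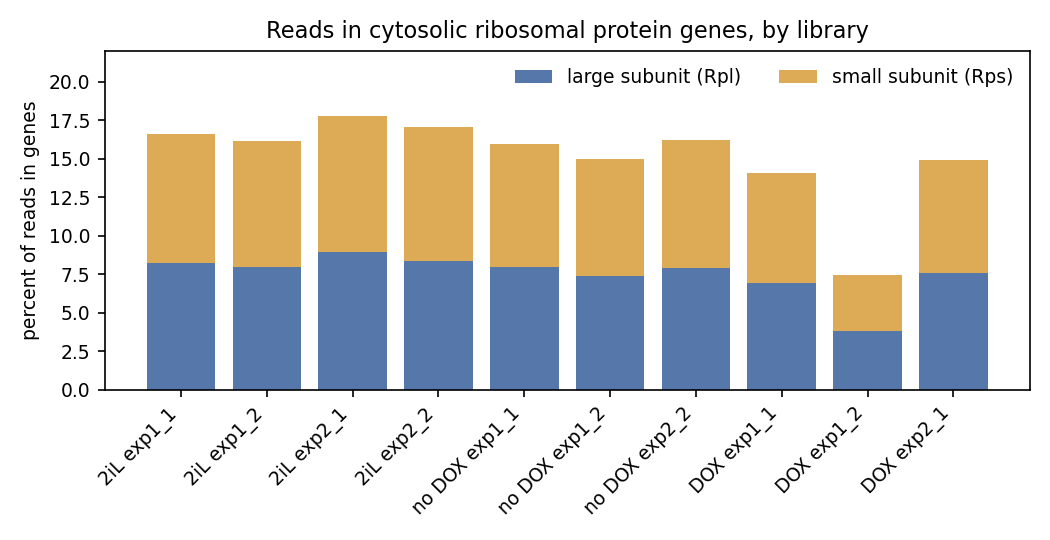
Percent of the reads in genes (vertical axis) that fell in large-subunit (Rpl, lower part of each bar) and small-subunit (Rps, upper part) genes in each of the 10 libraries. The bars stand between 14.0% and 17.7% in 9 libraries and at 7.46% in DOX exp1_2, and both subunits take nearly equal parts of every bar.

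Large-subunit genes held 48.6% to 51.0% of the ribosomal protein reads in every library, 96 h DOX exp1_2 included. The proteins of the mitochondrial ribosome, which are a separate set of 77 genes of nuclear DNA, took 0.639% to 0.699% of reads in 2iL, 0.609% to 0.696% without DOX, and 0.717%, 0.715% and 0.512% with DOX (exp1_1, exp2_1, exp1_2). Rps20, a protein of the small subunit, had 362178 reads over all libraries, whereas Rpl3l had 33, and 16 members held 50.6% of the reads of the set. Such reads are not divided by transcript length, because they come from the 3′ end.

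The unique-mapping counts may not give true levels for members whose 3′ ends recur in other genes, and how far this holds was not tested. For each member, the last 300 bases of a chosen annotated transcript were cut into overlapping pieces of 50 bases. These were looked for in transcripts of other annotated genes, pseudogenes included. The chosen transcript need not end where the sequenced mRNA does. All pieces were unique in 17 of the 81 members tested below, and under 50% were unique in 48. Rps6, the protein phosphorylated by S6 kinases, had only 1991 reads in all, and 16.7% of its pieces were unique. Rps3a1 (355 reads) and Rpl29 (300 reads) had 23.9% and 47.8%. The relation was loose over the set, since Rps12, with no unique piece, was among the 4 highest members. Spearman's rho between the unique share and the mean level was 0.20 over 81 members. Rpl39l, Rpl37, Rplp0, Rpl5 and Rpl11 had only unique pieces, Rpl7l1 had 97.6%, Rpl39 had 78.9% and Rps10 had 32.3%.

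The comparison of 96 h without DOX against 2iL asks what the loss of 2iL does. In it Rpl39l and Rpl7l1 were called lower, and no member was called higher. The edgeR quasi-likelihood test was fitted to all 11215 genes with enough reads, with Benjamini-Hochberg adjustment over all of them and an adjusted p below 0.05 taken as a call. 81 of the 82 members entered it, and Rpl3l had too few reads. Of all genes tested, 20.4% were called, 11.5% up and 8.90% down, so the 2 of 81 members called are a small share beside that background. The other 79 members differed by -0.44 to 0.16 on the log2 scale without passing the test, and their standard errors were at least 0.20. The median over the members was -0.15, against 0.0039 over all genes tested, and 71 of 81 fitted values were negative. In 17 members all 3 libraries without DOX lay below all 4 in 2iL and in 0 members they lay above, while 14.8% of all genes lay wholly below and 16.1% wholly above.

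Rpl39l (ENSMUSG00000039209, chr16:10170226-10174911, plus strand, GRCm38) had 77.3, 56.8, 74.9 and 79.2 CPM, scaled by TMM as all member levels below, in 2iL exp1_1, exp1_2, exp2_1 and exp2_2. Without DOX it had 6.14, 9.66 and 8.49 CPM in exp1_1, exp1_2 and exp2_2. With DOX it had 41.2 CPM in exp1_1, 56.3 CPM in exp2_1 and 23.5 CPM in exp1_2. Every 2iL library was far above every library without DOX, and the 3 DOX libraries lay between, just below the lowest 2iL value at their highest. Reads behind these values were 195 to 245 in 2iL, 21 to 45 without DOX and 32 to 184 with DOX. Rpl39l fell by 3.14 on the log2 scale without DOX against 2iL (SE 0.33, edgeR adjusted p = 6.12e-07), which is 8.80-fold. With DOX against no DOX it was 2.33 higher (SE 0.33, edgeR adjusted p = 3.04e-04), or 5.02-fold. With DOX against 2iL it was at -0.81 (SE 0.29, edgeR adjusted p = 0.058), which did not pass the test. These 2 comparisons share the libraries without DOX. Leaving out 96 h DOX exp1_2 gave a rise with DOX of 2.57 and a difference from 2iL of -0.57, and within experiment 1 alone the values were -3.07 and 2.04. The call against 2iL with DOX appeared when 96 h DOX exp2_1 was left out, at -1.11.

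The share of Rpl39l in the reads of Rpl39 and Rpl39l together is taken within a library, so that scaling between libraries does not enter it. It was 11.7%, 9.97%, 10.4% and 12.6% in 2iL (exp1_1, exp1_2, exp2_1, exp2_2), 1.02%, 2.75% and 1.86% without DOX (exp1_1, exp1_2, exp2_2), and 9.86%, 8.10% and 9.22% with DOX (exp1_1, exp2_1, exp1_2). The 3 groups did not overlap, and 96 h DOX exp1_2 lay between the other DOX libraries. The means were 11.2% ± 1.2 (SD, n = 4), 1.88% ± 0.866 (n = 3) and 9.06% ± 0.889 (n = 3), or 8.98% ± 1.24 with DOX without exp1_2 (n = 2). Rpl39 itself, a short protein at the exit of the peptide tunnel, had 513 to 648 CPM in 2iL, 341 to 596 CPM without DOX and 231 to 639 CPM with DOX, and its groups overlapped. Its differences of -0.31, -0.15 and -0.46 in the 3 comparisons did not pass the test, and those with DOX were 0.13 and -0.18 without 96 h DOX exp1_2.

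The 10 ES cell markers, a list chosen with these data known, went both ways. Without DOX against 2iL 4 of them were called lower and 2 higher, and with DOX against no DOX 3 were called higher and 1 lower. Zfp42 was at -3.30 without DOX against 2iL and at 2.10 with DOX against no DOX, Tdgf1 at -2.68 and 2.50, and Dppa5a at -2.86 and 2.51, all called in both comparisons. Lin28a had the opposite signs, 2.29 and -0.89, and was called in both. Utf1 was called higher without DOX (1.71) and Sox2 lower (-1.0), and their values of 0.57 and 0.84 with DOX against no DOX were not called. All of these values with DOX include 96 h DOX exp1_2. The markers of primitive endoderm, a lineage of the early embryo, summed to 17.3 to 28.9 CPM in 2iL and 23.8 to 34.5 CPM without DOX. With DOX they summed to 324, 369 and 621 CPM (exp1_1, exp2_1, exp1_2). Their part in the rise of Rpl39l was not tested.

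**Figure D2:**
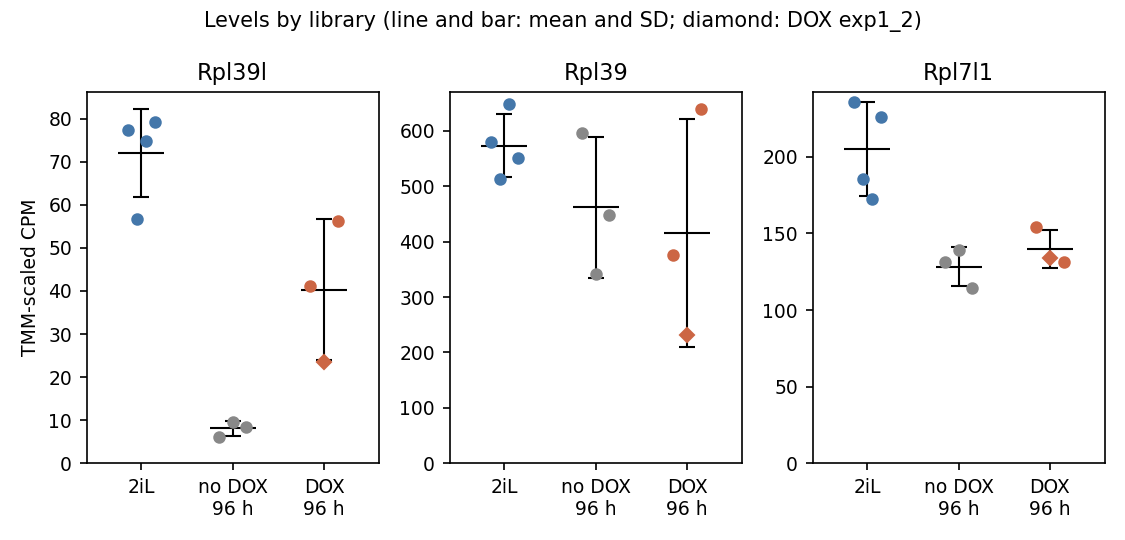
TMM-scaled CPM (vertical axes, from 0) of Rpl39l, Rpl39 and Rpl7l1 in each library of the 3 groups; the horizontal line and bar are the mean and SD, and the diamond is DOX exp1_2. Rpl39l stands at 56.8 to 79.2 in 2iL, 6.14 to 9.66 without DOX and 23.5 to 56.3 with DOX, while the groups of Rpl39 overlap and Rpl7l1 stays low in both 96 h groups.

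Rpl7l1 (ENSMUSG00000063888, chr17:46773907-46782672, minus strand, GRCm38), whose product is mostly known from ribosome assembly, had 236, 186, 173 and 226 CPM in 2iL (exp1_1, exp1_2, exp2_1, exp2_2). It had 132, 139 and 115 CPM without DOX (exp1_1, exp1_2, exp2_2) and 154, 132 and 134 CPM with DOX (exp1_1, exp2_1, exp1_2). All 96 h libraries, with or without DOX, lay below all 2iL libraries. It fell by 0.67 without DOX against 2iL (SE 0.21, edgeR adjusted p = 0.024) and was at 0.13 with DOX against no DOX (SE 0.22, adjusted p = 0.85). With DOX against 2iL it was at -0.55 (SE 0.21, edgeR adjusted p = 0.076). The call was lost without 2iL exp1_1 (-0.60), 2iL exp2_2 (-0.62), 96 h no DOX exp1_1 (-0.69) or 96 h no DOX exp2_2 (-0.60).

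Of the other paralogs, none passed the test in any comparison. Rpl22l1 held 9.74% ± 2.15 of the reads of Rpl22 and Rpl22l1 in 2iL (SD, n = 4), 8.28% ± 1.82 without DOX (n = 3) and 9.10% ± 1.17 with DOX (n = 3; 9.53% ± 1.28 without exp1_2, n = 2), within the spread between libraries. Rpl36al held 9.97% ± 1.47 of its pair in 2iL (n = 4), 10.05% ± 1.03 without DOX (n = 3) and 12.8% ± 0.411 with DOX without exp1_2 (n = 2). In 96 h DOX exp1_2 that share was 5.88%. Rpl7l1 held 8.46% ± 1.40 of its pair in 2iL (n = 4), 6.50% ± 0.315 without DOX (n = 3) and 8.33% ± 1.5 with DOX (n = 3), or 7.47% ± 0.143 without exp1_2 (n = 2). Rpl3l, known from skeletal muscle and heart, had 0 to 8 reads per library.

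The comparison of DOX against no DOX at 96 h asks what DOX changes once 2iL is gone. All cells carried the construct, so its effect and that of DOX itself cannot be told apart. Rpl39l was the only member called, and no member was called lower. Of all genes tested, 3.10% were called, 2.16% up and 0.945% down. At an unadjusted p below 0.05 there were 4 of 81 members (4.94%) against 15% of all genes, and 3 (3.70%) against 12.0% without 96 h DOX exp1_2. This order depended on the fit. Without 96 h DOX exp2_1 there were 24 members (29.6%), 22 of them lower, against 14.5% of all genes. Without 96 h DOX exp1_1 there were 17 (21.0%) against 17.9%. A replicate block of experiment and number gave 20 (24.7%) against 12.7%, and limma-voom 17 (21.0%) against 15.2%. DESeq2 gave 10 (12.3%) against 16.3%. The median over the members was -0.35, against -0.017 over all genes, and 74 of 81 values were negative. Without 96 h DOX exp1_2 the median was -0.14 and 58 of 81 were negative, so that library moved the median more than 1.5 times. In 5 members, with Rpl22, Rplp2, Rps10 and Rps9 (named here for this alone) among them, every DOX library lay below every library without DOX, and Rpl39l was the only member wholly above. The 5 are 6.17% of the members, and among all genes 8.74% lay wholly below and 9.98% wholly above. Without 96 h DOX exp1_2, 7 members (8.64%) and 13.4% of all genes lay wholly below.

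In the comparison of DOX at 96 h against 2iL, which joins the loss of 2iL with DOX, Rps10 and Rpl37 were called lower and no member higher. Of all genes tested, 16.7% were called, 9.84% up and 6.83% down. The median over the members was -0.54, against 0.019 over all genes, and it was -0.31 without 96 h DOX exp1_2. With library totals in place of TMM the members were at -0.40 and all genes at 0.16, so the gap between them stayed near that with TMM. 76 of 81 values were negative with that library and 74 of 81 without it. In 31 members every DOX library lay below every 2iL library (38.3%), against 13.3% of all genes, and in 0 members above, against 14.3%. Without 96 h DOX exp1_2 the figures were 32 members (39.5%) and 17.8% of all genes. At an unadjusted p below 0.05 there were 33 of 81 members (40.7%), all lower, while 13.0% of all genes were lower at that threshold. Without that library there were 19 members (23.5%), all lower, against 11.7% of all genes.

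Rps10 (ENSMUSG00000052146), a protein in the head of the small subunit, had 2461, 2225, 2903 and 2659 CPM in 2iL (exp1_1, exp1_2, exp2_1, exp2_2). It had 2040, 1782 and 2215 CPM without DOX (exp1_1, exp1_2, exp2_2) and 1698, 1713 and 611 CPM with DOX (exp1_1, exp2_1, exp1_2). The 3 groups did not overlap. It fell by 0.93 with DOX against 2iL (SE 0.30, edgeR adjusted p = 0.036), and by 0.59 without 96 h DOX exp1_2, where it was still called. The changes of -0.35 without DOX against 2iL and -0.58 with DOX against no DOX (-0.24 without 96 h DOX exp1_2) did not pass the test. The call was lost without 2iL exp1_1 (-0.95), 2iL exp2_1 (-0.85), 2iL exp2_2 (-0.89) or 96 h no DOX exp1_1 (-0.93).

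Rpl37 (ENSMUSG00000041841), a zinc-binding protein of the large subunit, had 3410, 2897, 3439 and 3265 CPM in 2iL (exp1_1, exp1_2, exp2_1, exp2_2). It had 2638, 1954 and 2634 CPM without DOX (exp1_1, exp1_2, exp2_2) and 2036, 2247 and 1715 CPM with DOX (exp1_1, exp2_1, exp1_2). All 96 h libraries lay below all 2iL libraries, and the 96 h groups overlapped. It fell by 0.70 with DOX against 2iL (SE 0.24, edgeR adjusted p = 0.045) and by 0.61 without 96 h DOX exp1_2. Its call was lost when any library was left out other than 96 h DOX exp1_2 or 96 h no DOX exp1_2, at values of -0.65 to -0.79. The number of members called lower with DOX against 2iL ranged from 0 to 11 over the fits without each library in turn. It was 0 without 2iL exp1_1, 2iL exp2_1, 2iL exp2_2 or 96 h no DOX exp1_1, 1 without 2iL exp1_2 or 96 h no DOX exp2_2, 3 without 96 h no DOX exp1_2, 8 without 96 h DOX exp1_1 and 11 without 96 h DOX exp2_1. The 8 are 9.88% of the members, against 5.71% of all genes called lower in that fit, and the 11 are 13.6% against 5.34%. With DESeq2 23 members were called lower (28.4%), against 8.69% of all genes, and with limma-voom 20 (24.7%), against 7.12%.

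**Figure D3:**
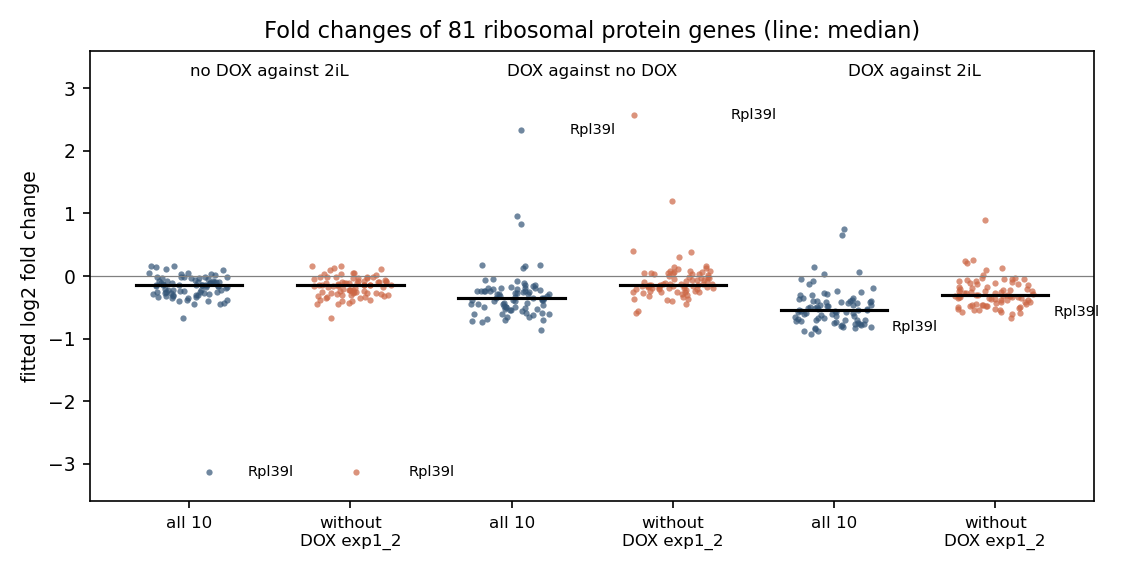
Fitted log2 fold change (vertical axis) of the 81 members tested in each of the 3 comparisons, with all 10 libraries (blue) and without DOX exp1_2 (orange); lines are medians and points are spread sideways only to be seen. Rpl39l stands at -3.14 and 2.33 in the first comparisons, and the medians with DOX move from -0.35 to -0.14 and from -0.54 to -0.31 when that library is left out.

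By role in the ribosome, the members fell into small lists whose values follow. The stalk proteins Rplp0, Rplp1 and Rplp2, which draw translation factors to the ribosome, were at -0.26, -0.25 and -0.02 without DOX against 2iL, and at -0.51, -0.70 and -0.88 with DOX against 2iL, with none called. The last 3 values were -0.22, -0.41 and -0.57 without 96 h DOX exp1_2. Rplp2 had 4397 to 7823 CPM in 2iL, 4233 to 7677 CPM without DOX, and 4095, 3511 and 1607 CPM with DOX (exp1_1, exp2_1, exp1_2). Rpl5 and Rpl11, which with a ribosomal RNA bind Mdm2 under nucleolar stress, were at -0.10 and -0.10 without DOX and at -0.71 and -0.42 with DOX against 2iL, with none called. Their values with DOX were -0.38 and -0.10 when that library was left out. The 8 proteins around the tunnel exit had medians of -0.10, -0.23 and -0.43 in the 3 comparisons, and the 3 at the mRNA entry (Rps2, Rps3, Rps9) -0.15, -0.24 and -0.35. None of the genes in either list was called in any comparison. The medians with DOX were -0.077 and -0.19 around the tunnel exit and -0.033 and -0.14 at the mRNA entry without 96 h DOX exp1_2. The 50 large-subunit members tested had medians of -0.18, -0.29 and -0.52, and the 31 of the small subunit -0.14, -0.39 and -0.58. Without that library the medians with DOX were -0.10 and -0.28 for the large subunit and -0.19 and -0.33 for the small.

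Rpsa, also known as the laminin receptor, had 2416 to 3030 CPM in 2iL, 2132 to 3119 CPM without DOX and 2197, 2007 and 643 CPM with DOX (exp1_1, exp2_1, exp1_2), and was not called. It was at -0.79 with DOX against 2iL, and at -0.41 without exp1_2. Rpl38, a protein tied to patterning of the mouse skeleton, had 1063 to 1225 CPM in 2iL, 833 to 1061 CPM without DOX and 665 to 905 CPM with DOX. Its groups did not overlap between 2iL and either 96 h group, and its changes of -0.25 and -0.54 against 2iL (-0.43 with DOX without exp1_2) did not pass the test. Rps25, used by some viral and cellular mRNAs that start without a cap, was at -0.15 and -0.64, and Rps28 at -0.10 and -0.29 against 2iL, neither called. Rpl10a was at -0.23 and -0.58, and Rpl10, an X-linked protein added late to the large subunit, at 0.14 and 0.07. Both had libraries that spread widely within a group, 86.3 to 245 CPM for Rpl10 without DOX. Rps6 was at -0.15 and 0.03, and Rps27a, made as a fusion with ubiquitin, at -0.03 and -0.72, neither called. Without 96 h DOX exp1_2 the values with DOX against 2iL were -0.26 for Rps25, -0.08 for Rps28, -0.19 for Rpl10a, 0.21 for Rpl10, 0.23 for Rps6 and -0.42 for Rps27a, so that for all of these 6 the library moved the value by more than 1.5 times.

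Genes with and without a tract within 5 bases of the start were set side by side. The 28 tested members with such a tract had medians of -0.15, -0.29 and -0.47 in the 3 comparisons, the 33 with a window but no tract -0.15, -0.35 and -0.58, and the 20 without a window -0.23, -0.37 and -0.53. The 17 members with only unique pieces had medians of -0.14, -0.33 and -0.51, and the 48 with under 50% unique -0.17, -0.29 and -0.51. When 96 h DOX exp1_2 was left out, the medians with DOX were -0.14 and -0.27 with the tract, -0.15 and -0.33 with a window but no tract, -0.13 and -0.32 without a window, -0.14 and -0.28 with only unique pieces, and -0.13 and -0.31 with under 50% unique.

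Libraries of 1 group differed from each other in the same members, which was looked at after the values had been seen. In 2iL exp1_2, Rps20 had 15877 CPM against 10611, 10690 and 11764 CPM in exp1_1, exp2_1 and exp2_2. Without DOX it had 16936 CPM in exp1_2 against 8662 and 8275 CPM in exp1_1 and exp2_2, and with DOX 9856 CPM in exp1_1, 7603 CPM in exp2_1 and 4068 CPM in exp1_2. So Rps20 was highest in the exp1_2 libraries of both groups without DOX. Rplp1 was the reverse, with 1991 CPM in 2iL exp1_2 against 2960 to 4031 CPM in the other 2iL libraries, and 1269 CPM in 96 h no DOX exp1_2 against 2893 and 3783 CPM. Rpl11 had 393 CPM in 2iL exp1_2 against 528 to 730 CPM, and 244 CPM in 96 h no DOX exp1_2 against 636 and 695 CPM.

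Over all 81 members, the log2 ratio of 2iL exp1_2 to the mean of the other 2iL libraries ran from -0.85 for Rps2 to 0.59 for Rpl6, and 65 of 81 were below 0. The ratio of 96 h no DOX exp1_2 to the mean of the other libraries without DOX ran from -1.44 for Rpl11 to 1.01 for Rpl14, and 66 of 81 were below 0. These ratios, which share no library, had a Pearson's r of 0.89 over the 81 members and 0.23 over all 11215 genes, as a description. The ratio of 96 h DOX exp1_1 to exp2_1 had r = 0.74 and 0.82 with them, and the ratio of 96 h DOX exp1_2 to the other DOX libraries had r = 0.20 and 0.14. 96 h no DOX exp1_2, 96 h DOX exp1_1 and 2iL exp1_2 were also the 3 deepest libraries, with 4715450, 4161567 and 3586901 reads in genes. The part of depth was not tested. Transcript length and the GC content of the 3′ end had Spearman's rho of 0.01 and -0.01 with the ratio in 2iL exp1_2, and 0.09 and 0.04 with that in 96 h no DOX exp1_2. The unique share of the 3′ end had 0.29 and 0.32 with these ratios. The reads of a member over all libraries, which include those of the libraries in the ratios, had 0.53 and 0.54, and 0.63 with the ratio of 96 h DOX exp1_1 to exp2_1. The part of read number was not tested.

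**Figure D4:**
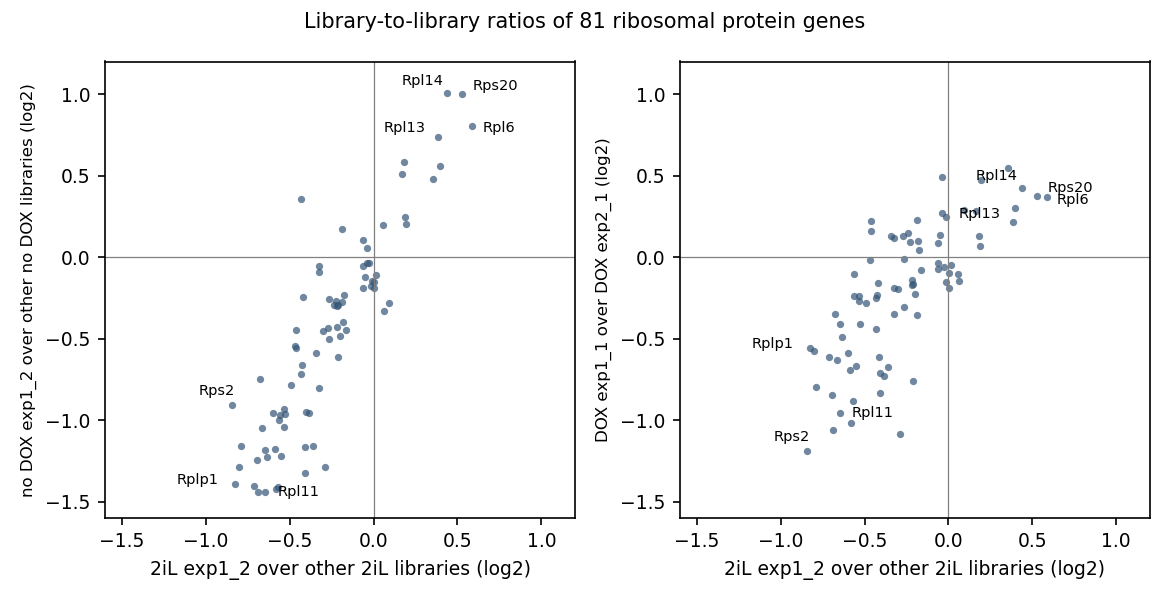
Each point is 1 of 81 members: the horizontal axis is its log2 ratio in 2iL exp1_2 to the mean of the other 2iL libraries, and the vertical axis is the log2 ratio of no DOX exp1_2 to the other libraries without DOX (left) or of DOX exp1_1 to DOX exp2_1 (right). Rpl14, Rps20 and Rpl6 stand high and Rplp1, Rpl11 and Rps2 low in both plots (r = 0.89 and 0.74).

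In 96 h DOX exp1_2, 78 of the 81 members were below the mean of the other DOX libraries, with a median log2 ratio of -1.05, against -0.072 over all genes. 47 members (and 13.1% of all genes) were below -1. It was the lowest of all 10 libraries for 67 members. Rpl36al was the lowest by this ratio, with 74.1 CPM against 388 and 431 CPM in exp1_1 and exp2_1. Rps26, a protein at the mRNA exit, was not lower there, with 2911 CPM against 2249 and 2341 CPM. Rps3a1 was the highest, with 44.0 CPM from 60 reads against 7.34 and 5.82 CPM from 31 and 19 reads. Rpl13a was the remaining member not lower, with 259 CPM against 216 and 277 CPM. These 3 members were named after their values were seen. The part of the marker genes of other cell types and of depth in this library was not tested.

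**Figure D5:**
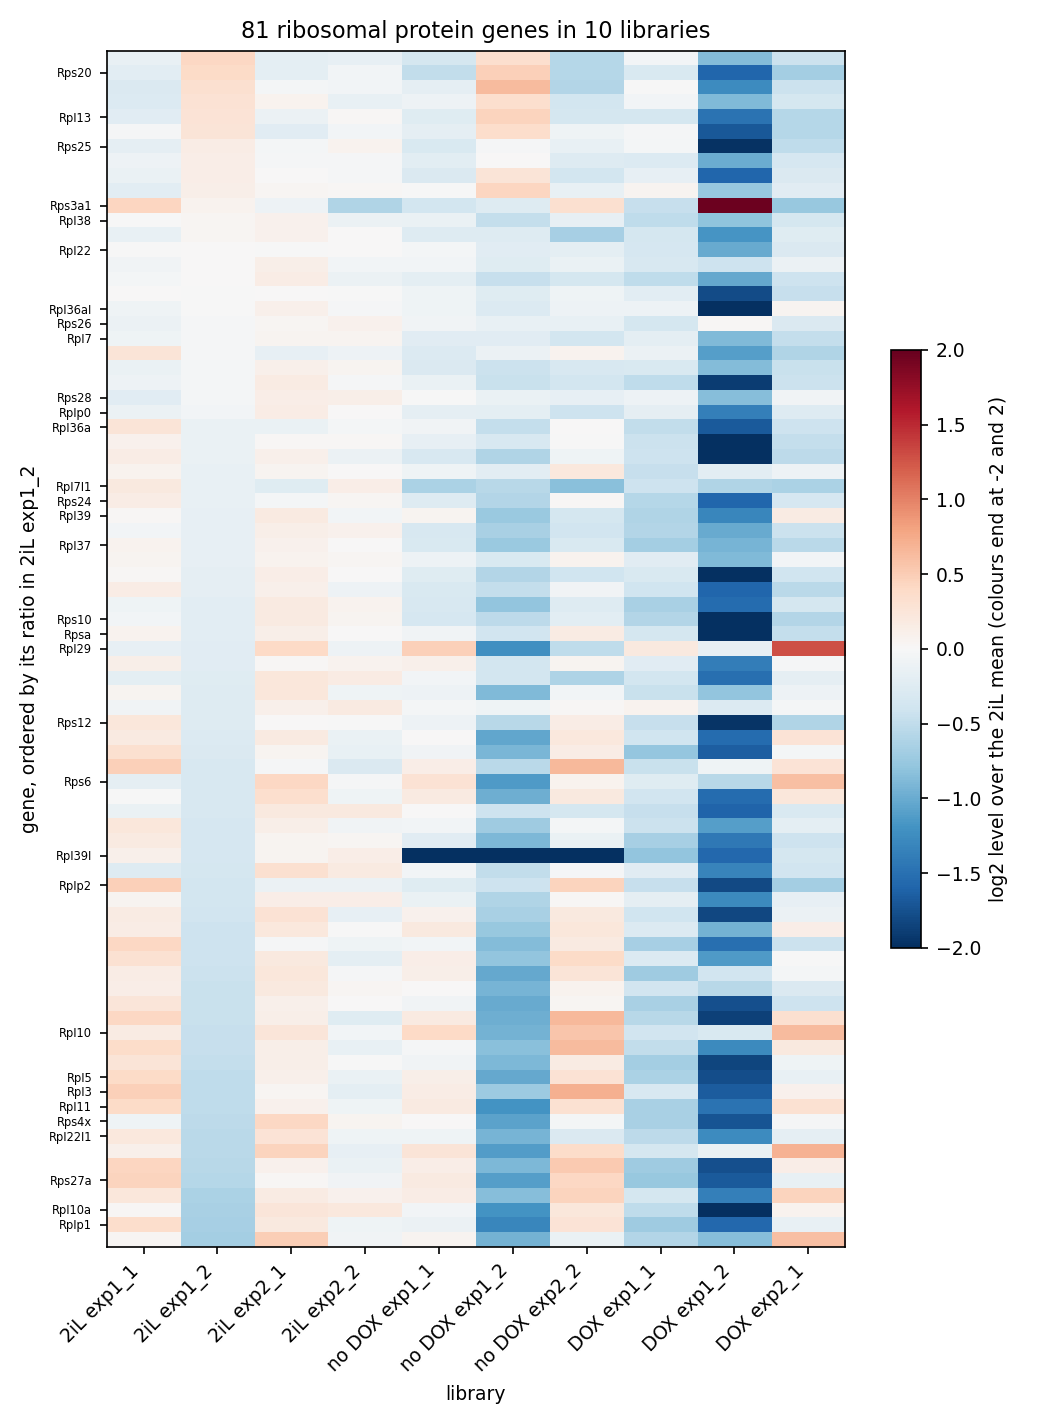
Log2 level of each of 81 members (rows, ordered by their ratio in 2iL exp1_2, with names for some) over its 2iL mean in each of the 10 libraries (columns); blue is lower and red is higher, and colours end at -2 and 2. DOX exp1_2 is blue in nearly every row but Rps3a1 and Rps26, Rpl39l is dark in the 3 libraries without DOX, and exp1_2 of 2iL and of no DOX share a gradient from top to bottom.

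The change of the members was also compared between experiments. The median was -0.22 in experiment 1 and -0.11 in experiment 2 without DOX against 2iL, -0.49 and -0.13 with DOX against no DOX, and -0.70 and -0.30 with DOX against 2iL. The DOX arm of experiment 1 holds 96 h DOX exp1_2. Experiment 2 has only 1 library without DOX and 1 with DOX, so its values rest on single libraries, which the fit assumes to vary like the others. The difference between experiments, fitted as an interaction, was called in 0 members in each comparison by edgeR, and passed an unadjusted p below 0.05 in 0, 1 and 1 members. Of all genes 0.00892%, 0% and 0% were called, and 7.62%, 5.47% and 6.43% passed the unadjusted threshold. With arms of 1 library, a low count does not show that the experiments were alike.

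Of 159 tested genes that make or run ribosomes, mitochondrial ribosomal proteins left out, 9 (5.66%), 0 and 8 (5.03%) were called in the 3 comparisons, against 20.4%, 3.10% and 16.7% of all genes. Fau, a ribosomal protein made as a fusion, and Rack1, which sits on the small subunit, lie outside the naming rule and were at -0.11 and -0.35 without DOX against 2iL and at -0.63 and -0.60 with DOX against 2iL (-0.26 and -0.39 without exp1_2), with none called. Of 63 tested genes of ribosome assembly, 1 was called lower in the loss of 2iL (Nip7, -0.65) and 1 with DOX against 2iL (Rrs1, -0.74). The medians were -0.0064, -0.11 and -0.090 in the 3 comparisons (with DOX -0.14 and -0.11 without exp1_2). Of 20 genes of RNA polymerase I, which transcribes ribosomal RNA, Polr2e fell without DOX (-0.75) and Cd3eap with DOX against 2iL (-0.89). Of 28 initiation and elongation factors, Eif2s2 fell in both comparisons against 2iL (-1.05 and -0.97) and Eif1ax rose without DOX (0.62). Of 16 translation factors whose mRNAs are of the TOP kind, Eif3k fell with DOX against 2iL (-0.75).

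Of 19 genes of mTOR and Larp1 control, Ddit4, an inhibitor of mTOR complex 1, rose without DOX (1.40), and Mlst8, an mTOR subunit, fell in both comparisons against 2iL (-1.09 and -1.17). Of 9 genes of the Myc network, Mxd4, an antagonist of Myc, rose in both (2.21 and 1.93) and Mxi1, another, fell without DOX (-0.87). Of 4 tested hosts of small nucleolar RNAs, Snhg18 rose in both (2.39 and 2.99) and Snhg20 fell with DOX against 2iL (-1.17). Of 75 mitochondrial ribosomal protein genes, Mrpl23 rose without DOX (1.98) and Mrpl34 rose with DOX against 2iL (0.87, but 0.25 and not called without exp1_2), with medians of -0.093, -0.041 and -0.12. Without that library the medians with DOX were 0.10 and 0.017. In all of these lists no gene was called with DOX against no DOX. Without mitochondrial ribosomal genes, the count called without DOX against 2iL was 5 without 2iL exp2_2 and 4 without 96 h no DOX exp1_1, and with DOX against 2iL it was 13 without 96 h DOX exp1_1 and 5 without 96 h DOX exp1_2, where Eif3k, Snhg18 and Snhg20 were no longer called.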

How the data were processed

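The authors deposited read counts per gene for 10 libraries, which were used for every test, and a CPM table. Per the labels' protocols polyA RNA was read from its 3′ ends (digital gene expression). The submitters' processing notes name bcl2fastq, STAR 2.6.0a, HTSeq and mm10. Which gene annotation was counted, and whether strand was used, is not given in these sources. The 5 summary lines of each count file, 62.7% to 68.4% of all reads and mostly reads that did not map uniquely (56.4% to 62.4%), were taken off first. The deposited CPM values gave whole reads, within 0.01, for 310530 of 310530 entries, and these equalled the counts.

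Symbols came from a name table (30934 of 31053 matched), positions from GENCODE vM21 on GRCm38, and sequences from RefSeq (GRCm38.p6). Genes passed filterByExpr with the groups as design and a minimum count of 10, and were scaled by TMM, and fitted with the robust quasi-likelihood model of edgeR 4.0.16 in R 4.3.3 over all 10 libraries, with comparisons as contrasts of group means and Benjamini-Hochberg adjustment over the 11215 genes tested. Standard errors come from the fold change and the F statistic. Ratios between libraries were taken on log2(CPM + 1). Marker and Esrrb levels are CPM without TMM.

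The members, gene lists, named genes and tests were chosen with earlier results of these data known. Members named were those called, up to 6 in each direction and comparison, the 4 highest and 4 lowest by mean CPM, a set of well-known proteins and the paralog pairs. Other pathway genes named were up to 2 called genes per list, direction and comparison. Alternatives left out each library, used experiment 1 alone, only the groups compared, a replicate block, other scalings and filters, limma 3.58.1 and DESeq2 1.42.0. The fit was tested on simulated data. Some results are not reported here.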

Additional observations from a re-analysis of the deposited data

How the results depend on the processing

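The call of Rpl39l in both comparisons with the libraries without DOX was kept under all 25 alternatives run. These include a fit to the reads recovered from CPM, which equalled the counts and so could not change a call. The 2 members called lower without DOX against 2iL became 1 in experiment 1 alone, with the summed ribosomal protein reads as library size, and without a filter, and ranged from 1 to 2 without each library in turn. The 2 called lower with DOX against 2iL became 0 in experiment 1 alone, with only the 2 groups compared, with library totals, and with the summed ribosomal protein reads as library size, 1 with limma on log2(CPM + 1), 18 without a filter (5.13% of all genes called lower there), 20 with limma-voom and 23 with DESeq2, and ranged from 0 to 11 without each library. The cause was not tested. Scaling to the summed ribosomal protein reads, which centres the members by construction, turned their medians to 0.0029, 0.11 and 0.092 in the 3 comparisons (all genes 0.16, 0.54 and 0.74), and Rpl37 with DOX against 2iL to 0.015. Counts of other pathway genes ranged from 4 to 12, from 0 to 1 and from 5 to 13 without each library. The share ratio without DOX to 2iL was 0.866 with all reads as denominator, against 0.932. Deviations of same-numbered libraries between 2iL and no DOX correlated at 0.01, 0.23 and -0.02 over all genes (exp1_1, exp1_2, exp2_2). Over 80 members, Rpl39l left out, they correlated at 0.17, 0.91 and -0.27. These values differ from pair to pair, so they cannot decide whether the numbers pair the libraries. With the experiment as a replicate block 1 member was called lower with DOX against 2iL, and with a replicate block made of experiment and number 14 (6.15% of all genes called lower). The 1253620 reads of 96 h DOX exp1_2 and the reads lost to several alignments limit the precision of members with few reads.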
